A study of Mus musculus with 5 samples.

Results

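Smooth muscle cells and myofibroblasts were picked out of droplet counts of sorted mouse lung cells and were chosen by measured counts of a few genes. A cell was taken if at least 700 genes were found in it and 0.1 to 15% of its UMIs (molecule tags that count each captured transcript once) came from mitochondrial genes. It also had to hold at least 3 UMIs of *Acta2*, at least 2 UMIs of *Myh11*, *Des*, *Actc1*, *Aspn* and *Hhip* together, and no UMI of *Cdh5*, *Pecam1*, *Epcam*, *Ptprc*, *Cox4i2* or *Higd1b*. The rule found 273 of the 29500 filtered cells of 5 libraries. Of these, 202 held at least 1 UMI of *Aspn* or *Hhip* and are called Aspn/Hhip cells here, and the other 71 are called cells with neither gene. Because measured values chose the cells, the levels of these 12 genes and every difference between the chosen cells and other cells, or between both kinds of chosen cell, are descriptions without a test. At the edge of the rule, 72 chosen cells had exactly 3 *Acta2* UMIs or exactly 2 of the other 5 genes, and 45 further cells missed it by 1 *Acta2* UMI, 20 by 1 UMI of the other genes, 183 by a lineage gene (109 of them by 1 UMI) and 130 by *Cox4i2* or *Higd1b*, which mark pericytes. The genes lie in GRCm38 at chromosome 19, 34241090 to 34255590 (*Acta2*), 16, 14194535 to 14291372 (*Myh11*), 1, 75360329 to 75368579 (*Des*), 13, 49544443 to 49567565 (*Aspn*) and 8, 79965851 to 80058006 (*Hhip*).

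*Acta2* encodes smooth muscle actin, *Myh11* smooth muscle myosin heavy chain, *Des* the intermediate filament desmin and *Actc1* cardiac actin. *Aspn* encodes the small matrix proteoglycan asporin, and *Hhip* encodes a membrane protein that binds hedgehog ligands and is itself a target of hedgehog signaling. In the lung, smooth muscle wraps the airways and larger vessels and contracts to narrow them. Myofibroblasts at the mouths of the alveoli share part of this contractile apparatus and make elastin and collagen, and after injury fibroblasts of other kinds can switch on *Acta2* as well. In hedgehog signaling a ligand binds the receptor PTCH1, which releases the transducer SMO and lets GLI factors turn on target genes.

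Each library is 1 condition, made from adult C57BL/6 mice and pooled from several animals. The fl/fl control mice carried floxed *Itgb1* (the β1 integrin gene) but neither the rtTA nor the Cre transgene, and the iKO littermates carried in addition SP-C rtTA and Tet-O-Cre, which delete *Itgb1* in alveolar type 2 (AT2) cells and not by design in the cells described here. All mice first drank doxycycline and, after a month without it, got a single dose of LPS (bacterial lipopolysaccharide, which injures the alveoli) or PBS into the trachea at 3 months of age. The libraries are day 7 LPS fl/fl, day 7 LPS iKO, day 7 PBS iKO, day 21 LPS fl/fl and day 21 LPS iKO, and a PBS-treated fl/fl library was not analysed here. Viable cells without CD45 and Ter119 were sorted, and to both day 21 libraries EPCAM-positive cells were added, so shares of all cells are not comparable between times.

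With 1 library per condition no spread between animals is known, and no p-value is given. Levels are UMIs summed over the cells of a kind in a library and given per 1000000 UMIs of those cells (CPM), with exact 95% Poisson intervals, and shares have exact 95% Clopper-Pearson binomial intervals. Both cover counting error only. The chosen cells held 631029 UMIs in day 7 LPS fl/fl, 756347 in day 7 LPS iKO, 96633 in day 7 PBS iKO, 252493 in day 21 LPS fl/fl and 22948 in day 21 LPS iKO. Their median UMI count was 7558, 6990.5, 3100.5, 3313.5 and 2610 in the same order, against 2602, 2725.5, 2219, 2513 and 5330 over all filtered cells. No barcode was shared between the chosen cells of any pair of libraries, and 9 of the 273 had a high doublet score. Sex differed between the libraries: in day 7 LPS fl/fl 60 of 78 chosen cells had an *Xist* UMI and none a Y-linked one, in day 7 LPS iKO 53 of 88 had a Y-linked UMI and none *Xist*, and the other libraries held both. Hashtag antibodies marked 3 mice per library, but only 45 of 78, 47 of 88, 1 of 30, 11 of 68 and 1 of 9 chosen cells carried a single hashtag, of which 37 of the 45 and 40 of the 47 carried that of 1 mouse, so the animals could not serve as replicates. *Itgb1* in the chosen cells was 1051 CPM in day 7 LPS fl/fl, 1157 in day 7 LPS iKO, 745 in day 7 PBS iKO, 614 in day 21 LPS fl/fl and 1351 in day 21 LPS iKO. In epithelial cells of the same libraries (those with an *Epcam* UMI and none of *Cdh5*, *Pecam1* or *Ptprc*), which include the AT2 cells, it was at 265 CPM (245 to 287) in day 7 LPS fl/fl and 361 (336 to 388) in day 21 LPS fl/fl, and at 181 (167 to 196), 145 (109 to 189.6) and 156 (149 to 163) in day 7 LPS iKO, day 7 PBS iKO and day 21 LPS iKO. Each iKO library was thus below both fl/fl libraries in those cells, and where the reads fall along *Itgb1* was not tested.

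The contractile and myofibroblast labels were checked against markers that the rule did not use. *Tagln*, an actin-binding protein of contractile cells, was at 3401 CPM in day 7 LPS fl/fl, 2966 in day 7 LPS iKO, 5336 in day 7 PBS iKO, 3599.9 in day 21 LPS fl/fl and 3822 in day 21 LPS iKO in the Aspn/Hhip cells, and at 19.4 to 26.7 in the endothelial-gated cells of both day 7 LPS libraries. *Myl9*, the regulatory myosin light chain of smooth muscle, was at 718, 634, 936, 1128 and 1132 CPM in the same order, against 11.3 and 14 in those endothelial-gated cells. *Actg2*, the second smooth muscle actin, was at 252, 314, 161, 202 and 94.4 CPM, against 0.237 to 1.71 CPM in the endothelial-gated cells of the 5 libraries. All 3 contractile genes had UMIs in the Aspn/Hhip cells of every library. The endothelial-gated cells had to hold fewer than 3 *Acta2* UMIs, so part of these differences can be set by that gate. In day 21 LPS iKO *Actg2* lay below the 142 CPM that 3 UMIs make there. *Cnn1*, the calponin of differentiated smooth muscle, was sparse, with a UMI in 27 of 202 Aspn/Hhip cells and 15 of 71 cells with neither gene. *Myocd*, the coactivator that drives smooth muscle genes, had a UMI in 22 and 9 cells, and *Notch3*, a receptor of vascular smooth muscle, in 24 and 20. Of the Aspn/Hhip cells 108 had no *Myh11* UMI, and 49 of the cells with neither gene entered through *Des* alone.

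The 15 markers of vascular smooth muscle summed to 643, 361, 404, 309 and 784 CPM in the chosen cells of the 5 libraries in that order, below the 3014, 3117, 3145, 3893 and 4032 CPM of pericyte-gated cells, and *Fhl5*, *Pln* and *Rgs4* were at 0 in all chosen cells. Pericyte markers left after the 2 gate genes summed to 2030, 1687, 735, 923 and 1787 CPM, against 26446 to 29511 CPM in pericyte-gated cells. Markers of alveolar fibroblasts summed to 1204, 1222, 683, 1252 and 915 CPM, against 4221 to 6359 CPM in cells gated on them. The list includes the genes of that gate (*Npnt*, *Ces1d*, *Inmt* and *Tcf21*), so part of this difference is set by the gate. Genes of differentiated and of vascular smooth muscle were thus sparse, and the cells are called here by the genes that chose them. Markers of pulmonary vein heart muscle were near 0, at most 21.3 CPM in sum except 148 CPM in the 5 day 21 LPS fl/fl cells with neither gene. *Actc1*, which heart muscle also makes, was found in 25 of 273 cells, and 1 cell held 52.7% of its UMIs in the day 7 LPS fl/fl and 70.7% in the day 7 LPS iKO Aspn/Hhip cells. Mesothelial, Schwann cell and red cell markers summed to at most 67.5, 3.40 and 5.93 CPM in either kind of cell. Epithelial markers (*Sftpc* and *Scgb1a1* among them) summed to 883, 1203, 300.1, 2095 and 15121 CPM, below the 5074, 6747, 1236, 3985 and 18428 CPM of the endothelial-gated cells of the same libraries. Immune markers summed to 91.9, 116, 82.8, 222 and 1830 CPM, below the endothelial-gated cells in every library.

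**Figure D1:**
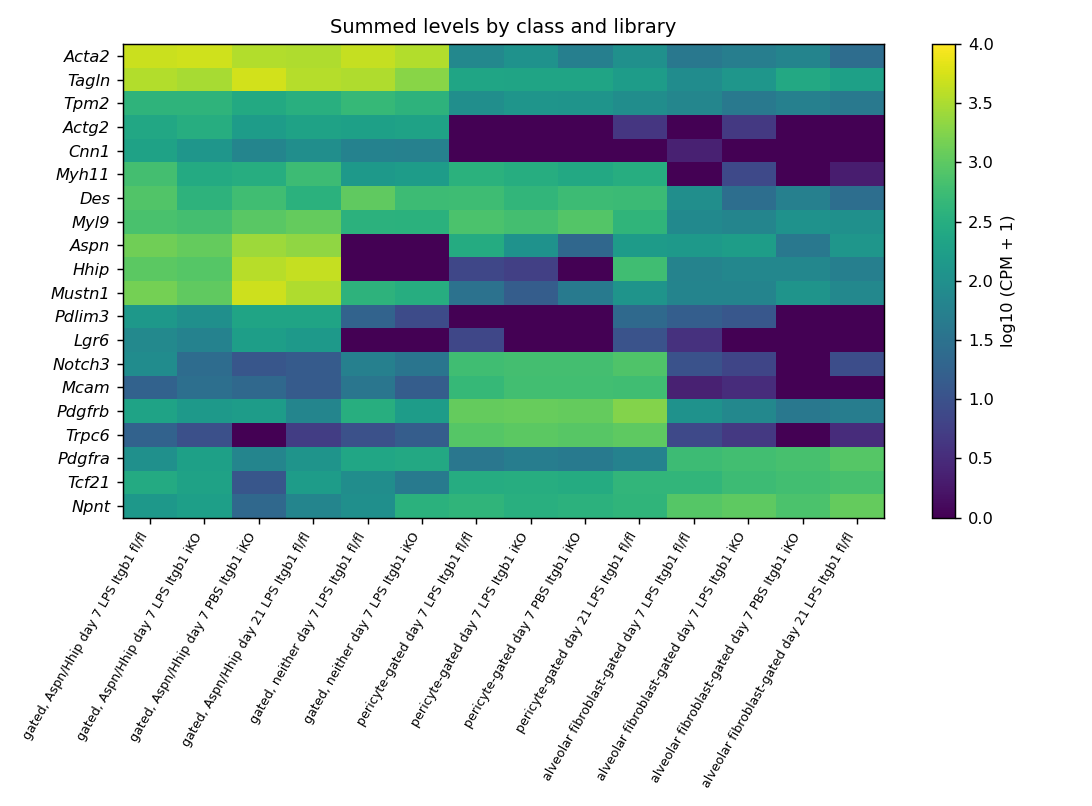
Levels of 20 marker genes, as log10 of CPM plus 1 (color), in Aspn/Hhip cells, cells with neither gene, pericyte-gated and alveolar-fibroblast-gated cells (columns, by library). *Tagln* and *Actg2* are higher in both kinds of chosen cell than in the other cells, *Acta2*, *Aspn* and *Hhip* differ by the rules that chose the cells, and *Notch3*, *Pdgfrb* and *Trpc6* are higher in the pericyte-gated cells.

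The single day 7 PBS iKO cell with neither gene stood apart, with *Acta2* at 32056, *Tagln* at 24178, *Myl9* at 13312, *Myh11* at 4890, *Tpm2* at 6792 and *Cnn1* at 2173 CPM among its 3681 UMIs. It was the only cell of its kind in that library, so cells with neither gene are compared between conditions only for both day 7 LPS libraries.

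Contractile genes are bound by serum response factor at a short motif called the CArG box, and promoter sequences are shown because the contractile genes of these cells can be read against it. The window of 250 bases before to 50 bases after the start in RefSeq (GRCm38.p6) was searched on both strands for the CArG box in its strict form, and variants that differ from it at a base were not searched. It held the motif in 6 of 32 promoters (18.8%) of the 25 contractile genes that matched of 30, namely *Actc1*, *Ldb3*, *Myl6*, *Myl9* and *Vcl*, against 535 of 32851 (1.63%) of all promoters. None of 15 promoters of the 11 matched myofibroblast markers and none of 8 hedgehog promoters held it. The promoter windows of *Acta2* (chr19:34255324-34255623, minus strand, no strict match), *Myl9* (chr2:156775214-156775513, plus strand, match beginning 161 bases before the start) and *Actc1* (chr2:114052826-114053125, minus strand, 47 bases before) read 5′ to 3′ as follows, with the CArG box in capitals.
Acta2: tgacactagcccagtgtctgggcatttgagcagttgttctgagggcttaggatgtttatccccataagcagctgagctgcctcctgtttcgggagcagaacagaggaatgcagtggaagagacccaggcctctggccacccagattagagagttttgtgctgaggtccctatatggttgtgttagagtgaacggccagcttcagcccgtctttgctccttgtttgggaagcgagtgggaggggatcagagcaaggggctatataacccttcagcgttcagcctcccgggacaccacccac
Myl9: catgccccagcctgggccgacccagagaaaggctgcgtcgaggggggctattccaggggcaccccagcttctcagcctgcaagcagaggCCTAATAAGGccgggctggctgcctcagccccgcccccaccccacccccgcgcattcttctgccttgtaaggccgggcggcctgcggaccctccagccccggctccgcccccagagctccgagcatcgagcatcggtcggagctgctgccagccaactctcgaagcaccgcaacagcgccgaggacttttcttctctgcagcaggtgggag
Actc1: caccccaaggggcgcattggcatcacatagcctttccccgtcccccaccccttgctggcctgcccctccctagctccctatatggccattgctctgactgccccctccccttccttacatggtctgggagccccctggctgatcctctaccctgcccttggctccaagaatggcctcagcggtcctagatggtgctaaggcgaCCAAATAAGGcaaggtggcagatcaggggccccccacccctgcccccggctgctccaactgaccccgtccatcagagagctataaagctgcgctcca

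The number of chosen cells per library was 78 in day 7 LPS fl/fl, 88 in day 7 LPS iKO, 30 in day 7 PBS iKO, 68 in day 21 LPS fl/fl and 9 in day 21 LPS iKO. Among the lineage-negative cells (those without a UMI of the endothelial, epithelial and leukocyte gate genes) they made up 13.6% (10.9 to 16.6, 78 of 575), 10.7% (8.66 to 13, 88 of 823), 11.2% (7.71 to 15.7, 30 of 267), 11.5% (9.08 to 14.4, 68 of 589) and 1.88% (0.861 to 3.53, 9 of 480). The first 4 intervals overlap, and that of day 21 LPS iKO lies below all of them. Epithelial markers in the chosen cells were also highest in that library, as given above, and their part in the low share was not tested. Over the chosen, pericyte-gated and alveolar-fibroblast-gated cells together, the chosen cells were 28.4%, 20.4%, 27.0%, 17.1% and 3.50%. Between genotypes at day 7 after LPS the share of lineage-negative cells differed by -2.87 percentage points (-6.55 to 0.678). Without the cells tagged for mouse 3 of fl/fl it differed by 0.884 (-2.96 to 4.42) and without those for mouse 3 of iKO by -6.04 (-9.67 to -2.48). The cells tagged for mouse 1 of fl/fl included no chosen cell. Without them only the denominator changed, and the share differed by -4.28 (-8.20 to -0.526). Over the chosen, pericyte-gated and alveolar-fibroblast-gated cells it differed by -7.95 (-14.8 to -1.27), so whether the interval held 0 depended on the tagged mice and on the denominator.

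The balance between both kinds of chosen cell differed with treatment. Aspn/Hhip cells were 42 of 78 chosen cells in day 7 LPS fl/fl (53.8%, 42.2 to 65.2) and 60 of 88 in day 7 LPS iKO (68.2%, 57.4 to 77.7). They were 29 of 30 in day 7 PBS iKO (96.7%, 82.8 to 99.9), 63 of 68 in day 21 LPS fl/fl (92.6%, 83.7 to 97.6) and 8 of 9 in day 21 LPS iKO (88.9%, 51.8 to 99.7). Cells with neither gene were thus found almost entirely 7 days after LPS, where they numbered 36 and 28, against 1, 5 and 1 in the other libraries. The intervals of both day 7 LPS libraries lie below those of day 7 PBS iKO and day 21 LPS fl/fl. With every chosen cell thinned to 2000 UMIs (33 shallower cells left out) and the rule for the cells not applied again, the shares were 37.1%, 50.6%, 96.3%, 91.4% and 100%. With the whole rule applied after thinning, they were 57.4%, 72.3%, 96.2%, 95.3% and 100%. Between genotypes at day 7 after LPS the share differed by 14.3 percentage points (-1.33 to 29.4), an interval that includes 0. The interval lay above 0 with at least 2 *Aspn* or *Hhip* UMIs required (16.5, 0.454 to 31.7), with the stricter rule for the cells (18.8, 0.295 to 36.1) and without the cells tagged for mouse 3 of iKO (21.2, 2.66 to 37.4), and without those for mouse 3 of fl/fl the difference was 4.77 (-13.3 to 23.8).

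Free RNA gives stray UMIs, and among endothelial-gated cells, which should lack both genes, 1.87%, 3.63%, 2.18%, 3.8% and 1.31% had an *Aspn* or *Hhip* UMI at median depths of 2455, 2510, 2240, 2224 and 2010.5 UMIs. With the bar raised to at least 5 UMIs of *Aspn* and *Hhip*, 23 of 78 (29.5%), 33 of 88 (37.5%), 24 of 30 (80.0%), 52 of 68 (76.5%) and 7 of 9 (77.8%) chosen cells qualified. The order of day 7 LPS libraries under the other libraries is the same with either bar. The amount of both genes per cell differed as well: *Aspn* and *Hhip* together had a median of 10.8 UMIs per 10000 in the Aspn/Hhip cells of day 7 LPS fl/fl and 14.3 in day 7 LPS iKO, against 63.1, 75 and 84.1 in day 7 PBS iKO, day 21 LPS fl/fl and day 21 LPS iKO. Both genes were found together in 22 of 42, 31 of 60, 26 of 29, 49 of 63 and 7 of 8 Aspn/Hhip cells. Depth moved with the split, since the cells with neither gene had a median of 8292 and 8337.5 UMIs in the day 7 LPS libraries against 6662.5 and 6530 in the Aspn/Hhip cells, and the cells that lacked both genes were thus the deeper ones in these libraries.

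**Figure D2:**
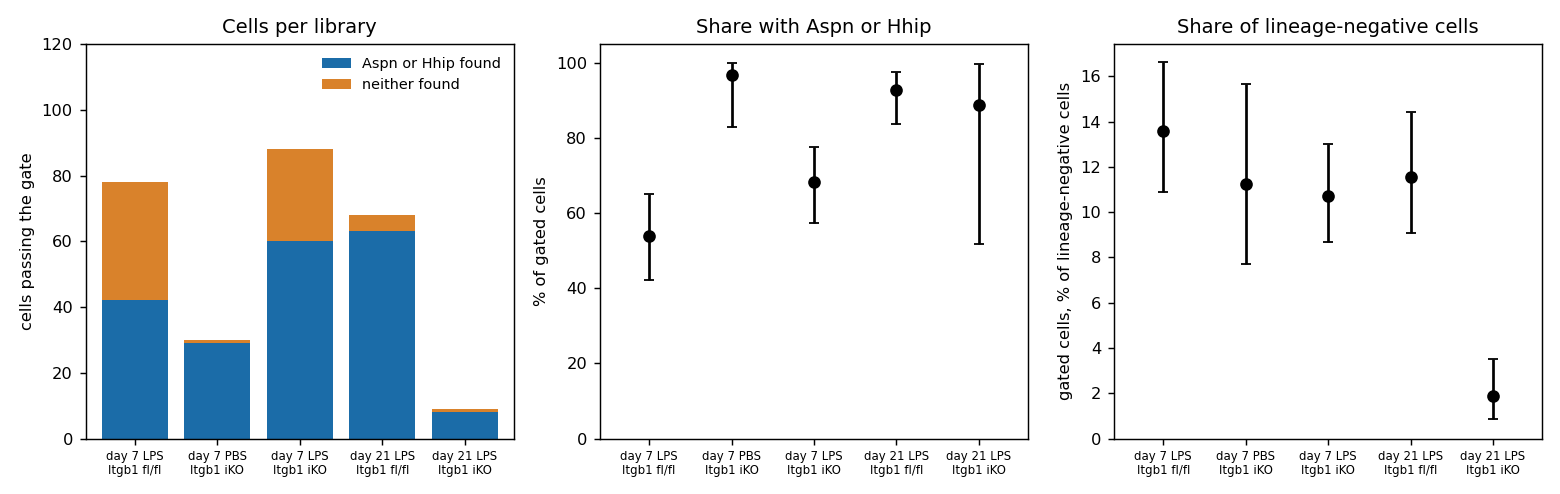
Cells chosen per library (left, Aspn/Hhip cells and cells with neither gene stacked), the percent of chosen cells with an *Aspn* or *Hhip* UMI (middle) and the percent of lineage-negative cells that were chosen (right), with 95% binomial intervals. Cells with neither gene were 36 and 28 in the day 7 LPS libraries and at most 5 elsewhere, and the chosen share was lowest in day 21 LPS iKO.

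**Figure D3:**
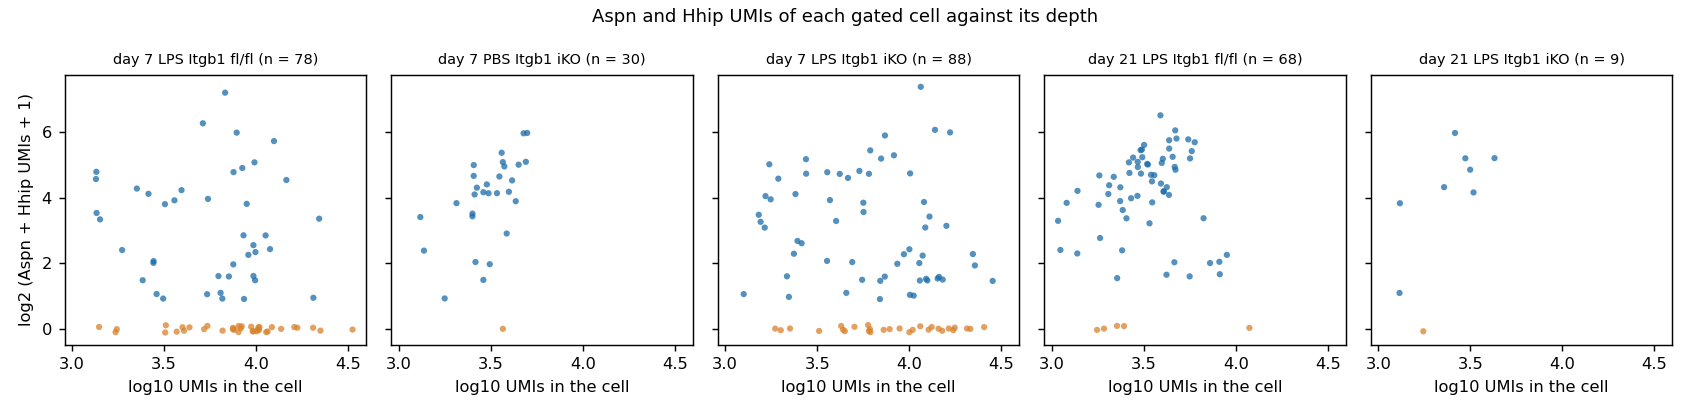
Each chosen cell of the 5 libraries by its UMI count (log10, x axis) and its *Aspn* and *Hhip* UMIs (log2 of the sum plus 1, y axis, with a small vertical jitter). The cells at 0 in the day 7 LPS libraries spread over the whole range of depth, and those of day 7 PBS iKO and day 21 LPS fl/fl lie mostly well above 0.

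Within both day 7 LPS libraries the split also moved with the hashtags. In day 7 LPS fl/fl 16 of the 37 cells tagged for mouse 3 were Aspn/Hhip cells (43.2%) against 23 of 33 without a single tag (69.7%), and in day 7 LPS iKO 24 of 40 (60%) against 32 of 41 (78.0%). The tagged cells were the deeper ones, with medians of 9569 and 11611 UMIs against 4339 and 4265. All 29 day 7 PBS iKO cells without a tag were Aspn/Hhip cells. The part of tagging and of the single animal in the split was not tested.

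Described within each day 7 LPS library, the Aspn/Hhip cells were the higher in most myofibroblast markers and the cells with neither gene in part of the injury matrix genes. A gene was counted as past the fold used here if its CPM, with 10 CPM added, differed 2-fold or more, with at least 50 CPM on 1 side and 10 UMIs on both together. In day 7 LPS fl/fl 4.92% of 4331 genes were higher and 6.4% lower in the cells with neither gene, and in day 7 LPS iKO 3.48% of 4048 were higher and 5.56% lower. Without the cells tagged for mouse 3 these 490 and 366 genes became 1038 and 1090, from fewer cells. Beside these shares, 6 of the 8 myofibroblast markers that held enough UMIs were lower in the cells with neither gene in day 7 LPS fl/fl and 1 (*Pdgfra*) was higher, and 6 of 10 were lower in day 7 LPS iKO. *Mustn1*, a nuclear protein of muscle and bone, was at 1447 CPM in the Aspn/Hhip cells and 391 in the cells with neither gene of day 7 LPS fl/fl, and at 1071 and 309 in day 7 LPS iKO. *Lgr6*, a receptor for R-spondins that marks airway smooth muscle, was at 74.9 and 59.0 CPM in the Aspn/Hhip cells and had no UMI in the cells with neither gene of either library, which makes it at least 8.42-fold lower and at least 5.55-fold lower there. *P2ry14*, a receptor for UDP-sugars, was 10.9-fold lower (4.71 to 31.0) and 5.28-fold lower (2.65 to 12) in the cells with neither gene of day 7 LPS fl/fl and iKO. *Wnt5a*, a signaling ligand of the lung mesenchyme, was 5.21-fold lower (2.94 to 9.80) and 3.18-fold lower (1.78 to 6.10). *Tgfbi*, a matrix protein, was 12.1-fold lower (5.61 to 31.2) in day 7 LPS fl/fl but 1.57-fold lower (1.14 to 2.20) in day 7 LPS iKO.

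Genes that differed in the same direction between both kinds of cell in every library were ranked by their ratio over all libraries together (at least 50 CPM on the higher side), and the 12 largest of each direction were taken. Day 7 PBS iKO and day 21 LPS iKO held 1 cell with neither gene each, so there the direction of a gene rests on that cell alone. The ranking also depends on the mix of libraries, and how many genes met the rule is not given. The levels printed are those within day 7 LPS fl/fl and within day 7 LPS iKO. *Cyp2e1*, a cytochrome P450 enzyme, was at 340.4 and 179 CPM in the Aspn/Hhip cells of these libraries and had no UMI in the cells with neither gene of either. *Lum*, a proteoglycan of collagen fibrils, was at 235 against 2.97 CPM in day 7 LPS fl/fl and at 409 against 10.6 in day 7 LPS iKO. *Pcsk5*, a proprotein convertase, was at 159.99 against 11.9 and 158 against 31.9 CPM, and *Sema3c*, a guidance ligand, at 262 against 29.7 and 232 against 28.4. *Fxyd6*, a regulator of the sodium pump, was at 197 against 2.97 and 114 against 10.6 CPM. *Agt* (angiotensinogen), *Ccdc3*, *Pappa2* and *Lgr6* were also among the 12, as was *Tnfsf9*, which was at 6.81 and 19.0 CPM in the Aspn/Hhip cells of these libraries and at 237 in those of day 21 LPS fl/fl. In the other direction *Map4k4*, a kinase, was at 193 CPM in the cells with neither gene against 187 in the Aspn/Hhip cells of day 7 LPS fl/fl and at 329.9 against 124 in day 7 LPS iKO. *Actn4*, an actin cross-linker, was at 267 against 180.4 and 312 against 209 CPM, and *Col4a1*, a basement membrane collagen, at 1663 against 1351 and 929 against 892. *Ebf1*, *Susd6*, *Bmp2k*, *Fads3*, *Pfn1*, *Ppfibp1*, *Ppp1r18* and *Prdx1* were also among them.

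Injury genes went the other way in part. Of 16 injury matrix genes 7 were higher and none lower in the cells with neither gene of day 7 LPS fl/fl, and 4 were higher and 1 lower in day 7 LPS iKO, with *Fn1*, *Grem1* and *Timp1* higher in both. *Fn1* encodes fibronectin, a matrix protein of wounds, and was at 6218 CPM (5954 to 6489.7) in the cells with neither gene of day 7 LPS fl/fl against 2669 CPM (2485 to 2862) in the Aspn/Hhip cells, and at 6104 CPM (5819 to 6399) against 2835 CPM (2686 to 2991) in day 7 LPS iKO. *Timp1*, an inhibitor of matrix metalloproteinases, was 4.80-fold higher (3.81 to 6.10) in day 7 LPS fl/fl and 2.84-fold higher (2.36 to 3.42) in day 7 LPS iKO. *Grem1*, a secreted BMP antagonist, was 3.92-fold higher (2.26 to 7.22) and 3.78-fold higher (2.96 to 4.86). *Fst*, which binds activins, was 6.31-fold higher (4.61 to 8.82) in day 7 LPS fl/fl and 1.32-fold higher (1.01 to 1.72) in day 7 LPS iKO. *Cthrc1*, a marker of collagen-producing fibroblasts after injury, was 5.91-fold higher (3.35 to 11.2) in day 7 LPS fl/fl and 1.08-fold lower (0.866 to 1.37) in day 7 LPS iKO. Among the genes with the largest differences in day 7 LPS fl/fl were *Slc20a1*, a phosphate transporter at 255 against 13.6 CPM, *Hbegf*, a ligand of the EGF receptor at 175 against 17.0, and *Thy1*, a surface protein of fibroblasts at 228 against 34.0. In day 7 LPS iKO they were *Ccl7*, a monocyte chemokine at 88.7 against 4.22 CPM, and *Jak2*, a cytokine receptor kinase at 174 against 46.4.

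Of the contractile list 1 gene was higher (*Actn1*) and 5 lower (*Ppp1r12b*, *Lmod1*, *Synpo2*, *Pdlim3*, *Cnn1*) of 22 in the cells with neither gene of day 7 LPS fl/fl, and none higher and 2 lower (*Pdlim3*, *Cnn1*) of 20 in day 7 LPS iKO. *Tagln* was at 3392 CPM in the cells with neither gene of day 7 LPS fl/fl and 1968 in those of day 7 LPS iKO, beside 3401 and 2966 in the Aspn/Hhip cells. *Eln*, which encodes elastin, was 1.93-fold lower (1.78 to 2.09) and 3.87-fold lower (3.42 to 4.4) in the cells with neither gene. *Col1a1*, the main chain of type I collagen, was 1.75-fold higher (1.67 to 1.84) in day 7 LPS fl/fl and 1.09-fold lower (1.04 to 1.14) in day 7 LPS iKO. Of the collagen list 1 of 15 was higher and 2 lower in the cells with neither gene of day 7 LPS fl/fl (median log2 ratio 0.49), and none of 14 was higher and 1 lower in day 7 LPS iKO (-0.45). Adventitial fibroblast markers moved with the split, since 9 of 12 were lower in the cells with neither gene of day 7 LPS fl/fl (*Ccl11* was higher) and 11 of 12 in day 7 LPS iKO. Their sum was 4378 and 4625 CPM in the Aspn/Hhip cells and 1281 and 1344 CPM in the cells with neither gene, against 14309 and 18517 CPM in alveolar-fibroblast-gated cells of the same libraries, and none of the 12 was at 0 in the Aspn/Hhip cells of all libraries. The part of other fibroblasts in the split was not tested.

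The cells that held *Aspn* or *Hhip* weakly lay between the others for fibronectin. *Fn1* was at 6218, 4827 and 847 CPM in the day 7 LPS fl/fl cells with 0, 1 to 4 and at least 5 *Aspn* and *Hhip* UMIs (36, 19 and 23 cells), and at 6104, 4290 and 864 CPM in those of day 7 LPS iKO (28, 27 and 33 cells). *Mustn1* ran the other way in day 7 LPS fl/fl, at 391, 811 and 1983 CPM, and was at 309, 293 and 2125 CPM in day 7 LPS iKO. *Enpp2* was at 311, 290.1 and 1563 CPM and at 575, 91.6 and 1410 CPM, so that only the strongly marked cells were high. In day 7 PBS iKO the 5 weakly marked cells held 6 *Fn1* UMIs and the 24 strongly marked ones none, and in day 21 LPS fl/fl the 11 weakly marked cells held 9 and the 52 strongly marked ones 2. Fibronectin was thus higher 7 days after LPS, in weakly and in strongly marked cells, than in the same classes of day 7 PBS iKO and day 21 LPS fl/fl.

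**Figure D4:**
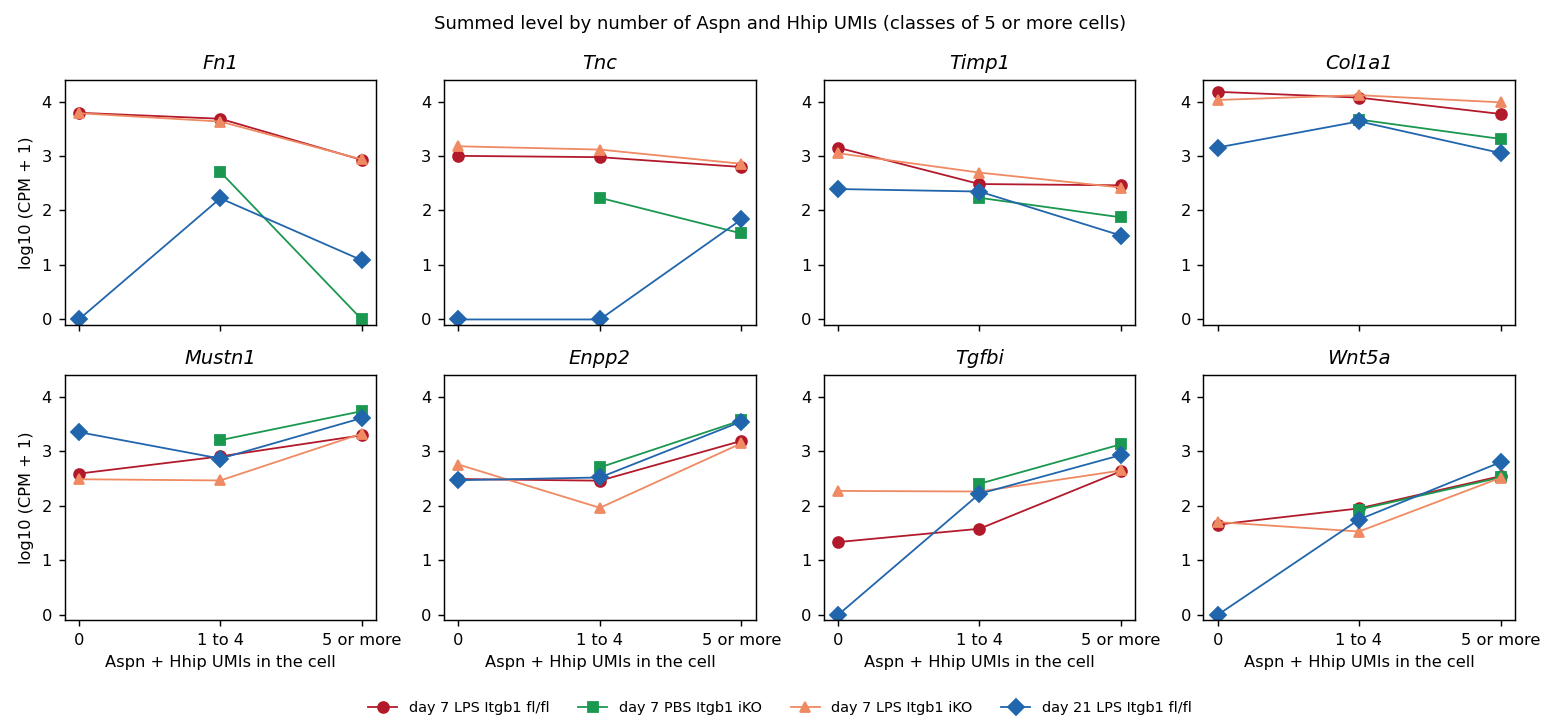
Levels (log10 of CPM plus 1) of 8 genes by the *Aspn* and *Hhip* UMIs of a cell (0, 1 to 4, 5 or more) in 4 libraries, for classes of at least 5 cells. In both day 7 LPS libraries *Fn1*, *Timp1* and *Tnc* are lowest and *Mustn1*, *Enpp2*, *Tgfbi* and *Wnt5a* highest in the cells with 5 or more, and in each class shown *Fn1* is higher in these libraries than in day 7 PBS iKO and day 21 LPS fl/fl.

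The Aspn/Hhip cells of injured and uninjured iKO lungs at day 7 (60 and 29 cells) differed in many genes, with those of the matrix among them. Fibronectin, tenascin, periostin and most collagens were higher 7 days after LPS, elastic fibre genes were higher in part, and most markers of alveolar myofibroblasts were lower. The comparison shares the day 7 LPS iKO library with that of genotypes. Sex differed here too, since 8 of 30 chosen PBS iKO cells had *Xist* and 3 a Y-linked UMI, while no LPS iKO cell had *Xist*. By the 2-fold rule 13.4% of 4436 genes were higher after LPS and 11.5% lower, and against this background 12 of 16 injury matrix genes and 11 of 14 collagen genes were higher and none lower. Their median log2 ratios were 3.03 and 1.98, beside -0.06 over all genes tested; 4 of the 16 injury genes had no UMI in PBS, and with these at the bound of 3 UMIs the median was 2.61. The PBS cells summed to 92952 UMIs, so that 3 UMIs make 32.3 CPM, and a gene enters the count more easily when it is high after LPS.

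*Fn1* was at 2669 CPM in day 7 LPS fl/fl, 2835 in day 7 LPS iKO, 64.5 in day 7 PBS iKO, 47.4 in day 21 LPS fl/fl and 0 in day 21 LPS iKO. Both day 7 LPS libraries were high and all others at 64.5 CPM or less, and day 7 LPS iKO was 43.9-fold higher (20.1 to 119.9) than day 7 PBS iKO. *Tnc*, which encodes tenascin-C, a matrix protein of repair, was at 776 CPM in day 7 LPS fl/fl, 1060.3 in day 7 LPS iKO, 53.8 in day 7 PBS iKO, 51.7 in day 21 LPS fl/fl and 94.4 in day 21 LPS iKO, or 19.7-fold higher (8.39 to 61.0) in LPS iKO than in PBS iKO. *Postn*, a matrix protein that pericytes also make, was at 1835 CPM in day 7 LPS fl/fl, 1559.9 in day 7 LPS iKO, 129 in day 7 PBS iKO, 30.1 in day 21 LPS fl/fl and 142 in day 21 LPS iKO, or 12.1-fold higher (6.88 to 23.5). *Col1a1* was at 8605 CPM in day 7 LPS fl/fl, 11625 in day 7 LPS iKO, 2388 in day 7 PBS iKO, 1877 in day 21 LPS fl/fl and 1227 in day 21 LPS iKO, or 4.87-fold higher (4.26 to 5.59). Both day 7 LPS libraries were also the highest for *Col1a2*, the second chain of type I collagen, at 4405, 5221, 882, 1313 and 661 CPM, and for *Col5a1*, a regulator of fibril size, at 814, 1505, 301, 228 and 94.4 CPM. *Col3a1*, the chain of type III collagen, was at 10127, 9437, 5691, 3888 and 3445 CPM, 1.66-fold higher (1.51 to 1.82) after LPS and under the 2-fold rule. *Col14a1* and *Col16a1* were at 282 and 177 CPM after LPS against 387 and 247 after PBS.

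Several genes without a UMI in the uninjured cells were found after LPS. *Cthrc1* had 221 UMIs in 13 of 60 cells of day 7 LPS iKO, at least 14.4-fold higher than PBS, with 29.9% of them in 1 cell. *Fst* was at least 8.75-fold higher, *Grem1* at least 6.33-fold higher, and *Runx1*, a transcription factor, at least 5.88-fold higher. *Cilp*, a cartilage matrix protein, was at least 7.05-fold higher and *C1qtnf3*, a secreted protein of the C1q and TNF family, at least 9.08-fold higher. *Spp1*, which encodes osteopontin, was at 4977 CPM in day 7 LPS fl/fl, 462 in day 7 LPS iKO, 21.5 in day 7 PBS iKO, 12.9 in day 21 LPS fl/fl and 0 in day 21 LPS iKO, and 1 cell held 67.4% of its UMIs in day 7 LPS fl/fl. *Ctgf*, a matrix-associated signal also called CCN2, was 4.73-fold higher (3.74 to 6.08) after LPS in iKO. *Thbs1*, *Timp3*, *Vcan* and *Cyr61* of the same list were at 1185, 1237, 261 and 1749.6 CPM after LPS and 1463, 1442, 172 and 1711 after PBS.

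Elastic fibre genes were higher in 8 of 18 and lower in 1 (*Ltbp3*), with a median log2 ratio of 0.88. *Eln* was at 5678 CPM in day 7 LPS fl/fl, 4026 in day 7 LPS iKO, 1409 in day 7 PBS iKO, 1149.7 in day 21 LPS fl/fl and 849 in day 21 LPS iKO, 2.86-fold higher (2.39 to 3.44) in LPS iKO than in PBS iKO. *Lox*, which cross-links elastin and collagen, was at 276, 502, 53.8, 64.6 and 47.2 CPM, 9.33-fold higher (3.94 to 29.0). *Fbn1*, the main protein of microfibrils, was 4.08-fold higher (2.61 to 6.76), *Mfap4*, a microfibril protein, 4.98-fold higher (3.82 to 6.61) and *Ltbp2*, a latent TGF-beta binding protein of microfibrils, 5.42-fold higher (2.44 to 15). *Ltbp3*, which anchors latent TGF-beta, was 2.35-fold lower (1.63 to 3.35). Basement membrane genes were higher in 9 of 14 (median 1.39) and lower in none, among them *Sparc*, a collagen-binding protein, at 8392 against 2162 CPM, *Col4a1* at 892 against 366 and *Nid1*, the linker nidogen, at 280.4 against 118.

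Myofibroblast markers showed the opposite direction: of 11 with enough UMIs 7 were lower after LPS and 2 (*Pdgfra*, *Ltbp2*) higher, with a median log2 ratio of -1.47. *Mustn1* was at 1447 CPM in day 7 LPS fl/fl, 1071 in day 7 LPS iKO, 5003 in day 7 PBS iKO, 3320 in day 21 LPS fl/fl and 2548 in day 21 LPS iKO, 4.67-fold lower (4.11 to 5.31) after LPS than after PBS in iKO. *Enpp2*, which encodes autotaxin, the enzyme that makes lysophosphatidic acid, was at 980.4 CPM in day 7 LPS fl/fl, 651 in day 7 LPS iKO, 3314 in day 7 PBS iKO, 2795 in day 21 LPS fl/fl and 5285 in day 21 LPS iKO, 5.09-fold lower (4.33 to 5.98). For both genes, and for *Tgfbi* at 252, 295, 1216, 698 and 897 CPM, the day 7 LPS libraries were the lowest of the 5. *Cdh4*, a cadherin, was 4.05-fold lower (2.24 to 7.25), *P2ry14* 2.87-fold lower (1.95 to 4.19) and *Lgr6* 2.92-fold lower (1.47 to 5.58). *Lgr5*, the other R-spondin receptor of these cells, was at 37.4, 37.9, 312, 60.3 and 47.2 CPM and 8.22-fold lower (4.42 to 15.7), so that day 7 PBS iKO stood above every other library. *Wnt5a*, at 231, 158, 301, 499.5 and 283 CPM, and *Fgf18*, a growth factor, at 13.6, 99.1, 75.3, 47.4 and 47.2 CPM, did not pass the fold between LPS and PBS in iKO. *Pdgfra*, the receptor for PDGF-A that marks alveolar fibroblasts and myofibroblasts, was 2.94-fold higher (1.30 to 8.22). *Stc1*, *Egfem1* and *Fgfr4* were at or under 25.8 CPM in every library. The gate genes, as a description, were at 1345, 1153, 2636, 2200.4 and 2029 CPM for *Aspn* and 977, 875, 3701, 4384 and 7549.7 CPM for *Hhip*.

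Of 22 contractile genes 4 were higher (*Flna*, *Cald1*, *Tpm1*, *Actn1*) and 1 lower (*Pdlim3*), with a median of 0.38, and so passed the fold about as often as all genes. *Actn1*, a cross-linker of actin in focal contacts, stood out at 371 CPM in day 7 LPS fl/fl, 578 in day 7 LPS iKO, 21.5 in day 7 PBS iKO, 51.7 in day 21 LPS fl/fl and 94.4 in day 21 LPS iKO, and was 26.8-fold higher (7.36 to 223) after LPS, with 2 UMIs in PBS. *Tpm1*, a tropomyosin, was 2.40-fold higher (1.88 to 3.12) and *Flna*, filamin A, 2.37-fold higher (1.52 to 3.90). *Tagln*, *Mylk* (myosin light chain kinase) and *Csrp1* were at 2966, 495 and 961 CPM after LPS and 5336, 301 and 753 after PBS. As a description, the gate gene *Acta2* was at 4779, 5129, 3421, 3342 and 4247 CPM, *Myh11* at 629.7, 280.4, 312, 551 and 2312 and *Des* at 807, 386, 602, 353 and 849. *Itga5*, the α chain of the fibronectin receptor, was 2.82-fold higher (1.16 to 8.95) after LPS, and *Itga8*, the partner of β1 in smooth muscle and myofibroblasts, 2.89-fold higher (1.07 to 11).

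Early-response and heat shock genes were lower after LPS in 7 of 18 and higher in 2 (*Hspa1a*, *Hspa1b*), with a median of -0.75. *Fos* was at 2900.2, 3231, 11081, 7286 and 5426 CPM, *Egr1* at 1651, 2616, 10436, 6339 and 4860.1 and *Junb* at 2182, 3436, 10984, 5740.1 and 1982. All 3 encode transcription factors that dissociation of tissue can also induce, and the day 7 PBS iKO library was the highest for each. *Nr4a1*, a nuclear receptor of the same early kind, was at 201, 837, 2259, 1339 and 377 CPM. In the endothelial-gated cells the whole list summed to 10424, 13678, 18424, 18270 and 13776 CPM, and in the Aspn/Hhip cells to 20424, 25228, 60978, 34828 and 21847. The part of tissue handling in these differences was not tested. Of growth factors, *Grem1*, *Vegfd*, *Pdgfa* and *Igf1* were higher after LPS, of 15 with enough UMIs, and *Fgf7* and *Igf2* were among those lower. *Igf2*, an insulin-like growth factor with 1 UMI after LPS, was 45.9-fold lower (6.37 to 2013), while *Fgf7*, a mitogen for alveolar epithelium, was 2.62-fold lower (1.40 to 4.76). *Igf1*, insulin-like growth factor 1, was 2.37-fold higher (1.47 to 4.08). Of 18 inflammatory mediators and sensors 7 were higher, *Ccl11*, *C3* and *Vcam1* among them, and 1 lower (*Cxcl1*), and of 13 interferon-stimulated genes 5 were higher, among them *H2-K1* and *H2-D1*, and 2 lower (*Irf7*, *Irf1*). Of 8 genes of excitation and calcium handling none passed the fold. Among TGF-beta pathway genes 5 of 19 were higher and 5 lower, with *Tgfb1*, the ligand, 7.93-fold higher (2.13 to 66.6) and *Tgfbr3*, the coreceptor betaglycan, 3.43-fold lower (2.25 to 5.18). Among the genes lowest after LPS by rank were *Enpp3*, *Gper1*, *Fam105a*, *Ngb* and *Cntfr*, and *Cntfr*, a cytokine receptor chain, was 8.71-fold lower (4.63 to 16.9).

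Because weakly marked cells made up more of the Aspn/Hhip cells after LPS, the comparison was repeated among cells with at least 5 *Aspn* and *Hhip* UMIs (33 LPS iKO and 24 PBS iKO cells), where 15% of 4021 genes were higher and 10.5% lower. *Fn1* was then at 864 CPM (740.2 to 1002) after LPS and had no UMI after PBS, at least 23.4-fold higher, and *Postn* was at least 54.7-fold higher. *Tnc* was 19.5-fold higher (6.53 to 95.6), *Col1a1* 4.70-fold higher (4.01 to 5.53) and *Eln* 4.64-fold higher (3.82 to 5.68). Among these cells 13 of 16 injury genes and 10 of 13 collagens were higher and none lower. *Mustn1*, *Enpp2*, *Tgfbi* and *Lgr5* were lower after LPS here too, at 2.59-fold (2.26 to 2.96), 2.64-fold (2.24 to 3.11), 3.03-fold (2.27 to 4.05) and 4.00-fold (2.15 to 7.64), and of the 11 myofibroblast markers 5 were lower and 3 higher, with a median of -0.55 in place of -1.47. Among these cells *Hhip*, part of the rule, was still 2.12-fold lower (1.82 to 2.45).

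Markers of other cells moved with treatment too. Alveolar fibroblast markers were higher in 6 and lower in 2 of the 8 with enough UMIs (of 11, none at 0 in all libraries), and their sum was 1353 CPM after LPS and 613 after PBS, against 4584 and 6144 CPM in cells gated on them, with *Tcf21*, a transcription factor of these fibroblasts, at 200.3 against 10.8 CPM. Epithelial markers were higher in 3 of 3 with a sum of 1294 against 301 CPM, and in endothelial-gated cells that sum was 6747 against 1236. Adventitial markers were higher in 4 and lower in 1 of 12 (median log2 ratio 0.19) and endothelial markers lower in 3 of 6, with sums of 4625 against 3400 and 331 against 914 CPM. These values are over all Aspn/Hhip cells. Among those with at least 5 *Aspn* and *Hhip* UMIs, adventitial markers were higher in 6 of 10 and lower in none (median 2.07, or 1.42 with the 3 at 0 in PBS at their bound), alveolar fibroblast markers higher in 5 and lower in 2 of 7 (median 1.24), epithelial markers higher in 3 of 3 and endothelial markers lower in 3 of 5. *Fn1* in alveolar-fibroblast-gated cells was at 1859 against 372 CPM and in endothelial-gated cells at 80.4 against 5.07. The part of these cells in the result was not tested.

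**Figure D5:**
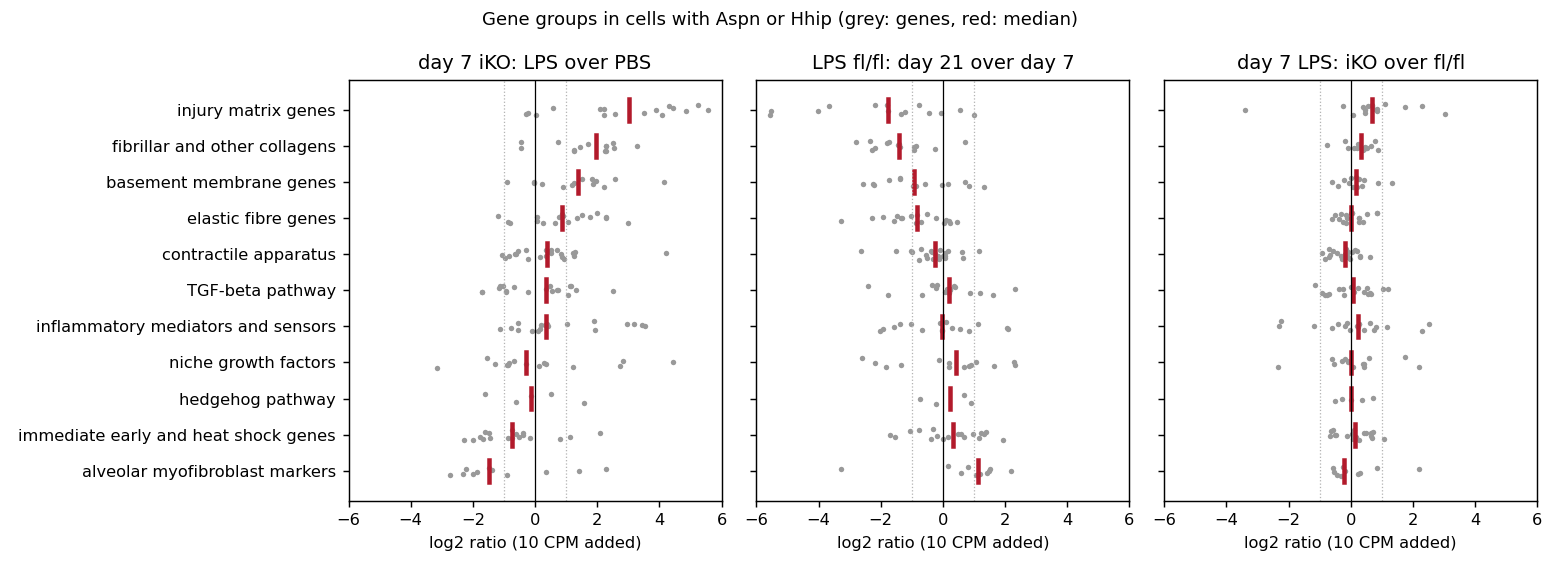
Log2 ratios of summed CPM (10 CPM added) of the genes of 11 lists (gray points) with the list median (red) in Aspn/Hhip cells for 3 comparisons: day 7 LPS iKO over PBS iKO, day 21 over day 7 LPS fl/fl, and LPS iKO over LPS fl/fl at day 7. Collagens and injury matrix genes lie above 0 in the first (medians 1.98 and 3.03), below 0 in the second (-1.42 and -1.77) and are at 0.33 and 0.68 in the third, and the myofibroblast markers have the opposite signs in the first pair.

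In fl/fl mice the Aspn/Hhip cells of day 21 after LPS (63 cells) had far lower matrix gene levels than those of day 7 (42 cells), and higher levels of myofibroblast markers. Here 7.73% of 4452 genes were higher and 7.52% lower at day 21. Of 14 collagens 9 were lower and none higher (median log2 ratio -1.42, all genes 0.01), of 15 injury matrix genes 10 were lower and none higher (-1.77, or -1.82 with *Fst*, at 0 at day 21, set to its bound), and of 18 elastic fibre genes 8 were lower and none higher (-0.85). This comparison shares the day 7 LPS fl/fl library with the comparison of genotypes, and the day 21 library was enriched for epithelial cells. Sex differed as well: at day 21, 29 of 68 chosen cells had *Xist* and 6 a Y-linked UMI, while none had a Y-linked UMI at day 7. *Fn1* was at 47.4 CPM (23.6 to 84.8) at day 21 against 2669 CPM (2485 to 2862) at day 7, 56.3-fold lower (31.3 to 113). *Tnc* was 15-fold lower (8.43 to 29.5), *Postn* 60.9-fold lower (29.3 to 152) and *Ltbp2* 12.2-fold lower (5.98 to 28.8). *Col1a1* was 4.58-fold lower (4.14 to 5.09) at day 21, *Col1a2* 3.35-fold lower (2.96 to 3.81) and *Eln* 4.94-fold lower (4.34 to 5.64). *Fst* was at least 11.9-fold lower and *Actn1* 7.18-fold lower (3.95 to 14.3). The levels of day 7 PBS iKO, given above, come from a library that differs from the day 21 one in genotype, time and treatment at once. *Col5a3*, a minor fibrillar collagen, and *Slc7a2*, a transporter of basic amino acids, were 9.80-fold lower (3.98 to 31.2) and 10.3-fold lower (3.78 to 39.1), and *Fam20a*, a secreted pseudokinase, was at least 5.80-fold lower.

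Myofibroblast markers were higher at day 21 in 6 of 10 (*Cdh4*, *P2ry14*, *Wnt5a*, *Mustn1*, *Tgfbi*, *Enpp2*) and lower in 1 (*Ltbp2*), with a median of 1.14. *Mustn1* was 2.29-fold higher (2.04 to 2.59), *Enpp2* 2.85-fold higher (2.48 to 3.29) and *Cdh4* 5.33-fold higher (2.94 to 10.3). *Wnt5a* was 2.16-fold higher (1.59 to 2.96) and *Tgfbi* 2.77-fold higher (2.09 to 3.70). *Lgr5*, high in PBS iKO, was at 60.3 CPM at day 21 and 37.4 at day 7, a ratio of 1.61 (0.679 to 3.92). *Ogn*, the proteoglycan osteoglycin, was 5.21-fold higher (4.14 to 6.63), *Wif1*, a secreted inhibitor of Wnt ligands, 13.5-fold higher (4.22 to 68.9) and *Bambi*, a decoy receptor of the TGF-beta family, 6.96-fold higher (2.88 to 20.3). *Tnfsf9*, a TNF family ligand, was 34.8-fold higher (9.18 to 294) with 2 UMIs at day 7, *Angpt2*, a ligand of the endothelial receptor TIE2, 5.98-fold higher (3.08 to 12.7) and *Nr4a1* 6.67-fold higher (5.03 to 8.96). Of 23 contractile genes 1 was higher and 3 lower (*Cnn1*, *Smtn*, *Actn1*), with a median of -0.26. *Notch3*, *Heyl* (a target of Notch), *Cspg4* and *Pdgfrb*, 4 of 5 vascular smooth muscle markers with enough UMIs, were lower at day 21.

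Among cells with at least 5 *Aspn* and *Hhip* UMIs (52 at day 21, 23 at day 7), 12.2% of 4658 genes were higher and 9.53% lower. *Fn1* was 75.5-fold lower (20.5 to 629.5) at day 21, where it had 2 UMIs, *Col1a1* 5.21-fold lower (4.47 to 6.10) and *Eln* 6.31-fold lower (5.40 to 7.41). *Mustn1* was 2.07-fold higher (1.81 to 2.37) and *Enpp2* 2.27-fold higher (1.95 to 2.64) at day 21. Both groups of genes thus differed between the times by more than counting error in strongly marked cells as well. Epithelial markers were higher in 3 of 4 at day 21 and lower in 1 (*Scgb1a1*) over all Aspn/Hhip cells, with sums of 2088 against 936 CPM there and of 3985 against 5074 in endothelial-gated cells, and alveolar fibroblast markers were higher in 2 and lower in 3 of 8, with sums of 1184 and 1648 CPM. Among the cells with at least 5 *Aspn* and *Hhip* UMIs alveolar fibroblast markers were higher in 2 and lower in 5 of 8 (median log2 ratio -1.44) and adventitial markers higher in 1 and lower in 5 of 10 (-1.26). Their part was not tested. The 8 Aspn/Hhip cells of day 21 LPS iKO held 21193 UMIs, so that 1 UMI makes 47.2 CPM, and they enter no comparison across genes.

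Between genotypes 7 days after LPS, how many genes differed in the Aspn/Hhip cells (60 iKO, 42 fl/fl) depended on the cells and the depth used. The share past the fold was 4.88% over all these cells and 14.7% with each cell thinned to 2000 UMIs. It was 13.2% in cells with at least 5 *Aspn* and *Hhip* UMIs. By the 2-fold rule 2.48% of 4156 genes were higher in iKO and 2.41% lower, 203 in all, against 482 without the cells tagged for mouse 3 of fl/fl and 420 without those for mouse 3 of iKO. Among them, no contractile gene of 22, collagen of 14, elastic fibre gene of 18 or hedgehog gene of 5 with enough UMIs passed the fold in either direction. The medians of these lists were -0.17, 0.33, 0.02 and 0.01, beside -0.04 over all genes. At day 7 after LPS all sexed cells of iKO were male and all of fl/fl female, so genotype and sex cannot be told apart, and each is 1 library. *Fn1* in iKO over fl/fl had a ratio of 1.06 (0.972 to 1.16), *Eln* of 0.709 (0.664 to 0.758), *Postn* of 0.850 (0.760 to 0.952) and *Tagln* of 0.872 (0.804 to 0.947). *Tnc* had a ratio of 1.37 (1.17 to 1.60), *Col1a1* of 1.35 (1.29 to 1.42) and *Col5a1* of 1.85 (1.60 to 2.15), each above 1 beyond counting error and under the fold. For *Tnc* 1 cell held 30.6% of the UMIs in iKO. *Mustn1*, *Enpp2* and *Tgfbi* had ratios of 0.740 (0.649 to 0.844), 0.664 (0.564 to 0.783) and 1.17 (0.878 to 1.57).

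Of 16 injury matrix genes 4 were higher in iKO (*Grem1*, *Cyr61*, *Ctgf*, *Cthrc1*) and 1 lower (*Spp1*), with a median of 0.68. *Ctgf* was at 3666 CPM (3495 to 3842) in iKO and 745 CPM (650 to 851) in fl/fl, 4.92-fold higher (4.27 to 5.68), with a UMI in 41 of 60 and 23 of 42 cells. *Cthrc1* was 9.78-fold higher (5.70 to 18.2), with a UMI in 13 and 5 cells, and *Cilp* 6.08-fold higher (3.27 to 12.5). *Fgf18* was 7.28-fold higher (2.66 to 27.8) and the only myofibroblast marker past the fold. *Nr4a1* was 4.17-fold higher (3.16 to 5.58), and it was also higher in iKO among endothelial-gated cells, at 169 against 65.9 CPM. *Fkbp11*, a chaperone of the secretory pathway, was 5.20-fold higher (2.06 to 16.9), *Nln*, a peptidase, 5.78-fold higher (1.78 to 29.7), and *Gm47766*, without a UMI in fl/fl, at least 6.19-fold higher. Lower in iKO were *Notch3*, 3.50-fold lower (1.70 to 7.61), *Ndufa4l2*, a mitochondrial protein of pericytes and smooth muscle, 4.84-fold lower (1.98 to 13.5), and *Rasl12*, *Fbxo32*, *Rbl2*, *Ldhb*, *Gm2564* and *Spon2*, of which *Spon2*, a secreted matrix protein, had the highest level, at 223 against 565 CPM. *Gucy1a1*, *Gucy1b1* (both chains of the nitric oxide receptor) and *Pde3a* were also lower, and pericyte markers were lower in 3 and higher in 1 of 7, with sums of 2029.9 CPM in iKO and 2567 in fl/fl, and their part was not tested.

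With at least 5 *Aspn* and *Hhip* UMIs (33 iKO and 23 fl/fl cells) 6.29% of 4295 genes were higher and 6.87% lower. *Ctgf* was then 12.4-fold higher (9.67 to 16.2) in iKO, *Cthrc1* 6.33-fold higher (3.03 to 15.3), *Cilp* 3.8-fold higher (1.90 to 8.42) and *Nr4a1* 8.45-fold higher (5.27 to 14.3). *Fn1* had a ratio of 1.02 (0.810 to 1.29), *Postn* of 1.04 (0.894 to 1.21), *Eln* of 0.947 (0.873 to 1.03) and *Col1a1* of 1.63 (1.51 to 1.77). That of *Tnc* was 1.15 (0.883 to 1.495), an interval that includes 1. In these cells 1 of 13 collagens and 2 of 22 contractile genes were higher and none lower. Of 18 elastic fibre genes 1 was higher and 1 lower, and of 16 injury matrix genes 4 were higher and 1 lower. Of all genes 13.2% passed the fold here, against 4.88% among all Aspn/Hhip cells. Collagen, elastic fibre and contractile genes thus passed it no more often than all genes in either set. Alveolar fibroblast markers were lower in 3 of 7 and adventitial ones lower in 3 and higher in 1 of 10. Of 18 inflammatory mediators and sensors with enough UMIs in these cells, 6 were higher and 4 lower in iKO. Over all Aspn/Hhip cells 19 mediators had enough UMIs, and chemokines differed in both directions. There *Cxcl1*, *Cxcl2* and *Ccl11* were higher and *Cxcl12*, *Ccl2* and *Ccl7* lower in iKO. *Cxcl12*, the ligand of CXCR4, was at 534 CPM in day 7 LPS fl/fl, 229.8 in day 7 LPS iKO, 108 in day 7 PBS iKO, 133 in day 21 LPS fl/fl and 0 in day 21 LPS iKO, 2.33-fold lower (1.81 to 3.00), and *Ccl2* was 5.95-fold lower (3.54 to 10.5). Over all Aspn/Hhip cells endothelial markers were lower in iKO in 3 of 5, with sums of 331 against 562 CPM. Among cells with at least 5 *Aspn* and *Hhip* UMIs 1 of 4 such markers was higher and none lower. The part of endothelial cells was not tested.

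Among the cells with neither gene (28 iKO, 36 fl/fl) 3.45% of 4145 genes were higher in iKO and 4.27% lower, 320 in all, against 746 without the cells tagged for mouse 3 of fl/fl and 1024 without those for mouse 3 of iKO. Of 18 genes of the early-response and heat shock list 5 were lower (*Hspa1a*, *Hspa1b*, *Hsph1*, *Dnajb1*, *Hsp90aa1*, which encode heat shock proteins) and 1 higher (*Btg2*), while 11 had a ratio above 1 and the list median was 0.14. *Hspa1b* was at 103 CPM (68.9 to 148) in iKO and 1049.6 CPM (943 to 1165) in fl/fl, and at 166 and 300.3 CPM in endothelial-gated cells, so the order of libraries was the same there with a smaller ratio. Of 13 interferon-stimulated genes 5 were lower in iKO (*Isg15*, *Tap1*, *Ifit3* and *Ifit3b* among them) and none higher, with a median of -0.77 (-0.83 with 1 gene at 0 set to its bound), and no contractile gene of 19 passed the fold. *Grem1* was 3.62-fold higher (2.76 to 4.80) in iKO, *Tgfbi* 9.06-fold higher (4.10 to 23.6) and *Sox9*, a transcription factor of cartilage and early mesenchyme, 5.58-fold higher (2.27 to 16.5). *Eln* was 2.83-fold lower (2.48 to 3.23), *Fst* 2.60-fold lower (2.08 to 3.27) and *Col15a1*, a basement-membrane-associated collagen, 4.75-fold lower (3.33 to 6.92). *Fn1*, *Tnc* and *Timp1* had ratios of 0.982 (0.920 to 1.05), 1.5 (1.30 to 1.74) and 0.792 (0.685 to 0.914). *Spp1* was at 9519.5 against 4282 CPM, with 37.9 and 24.2% of its UMIs in 1 cell, and all UMIs of *Cxcl13*, a B cell chemokine at 979 CPM in iKO, came from 1 cell. Also named by rank were *Nfkbiz*, *Sfxn1* and *Wwp2*, higher in iKO, and *Rasl11a*, *Adgrd1*, *Traf3* and *Rbl2*, lower. The confounding of genotype with sex holds here as well.

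The hedgehog genes other than *Hhip* were low throughout. The receptor gene *Ptch1* was at 47.7 CPM in day 7 LPS fl/fl, 84.3 in day 7 LPS iKO, 21.5 in day 7 PBS iKO, 81.8 in day 21 LPS fl/fl and 142 in day 21 LPS iKO in the Aspn/Hhip cells, with 14, 40, 2, 19 and 3 UMIs, and in iKO it was 3.92-fold higher (1.02 to 33.5) after LPS than after PBS. *Boc*, a coreceptor, was at 54.5, 35.8, 129, 112 and 0 CPM and 3.60-fold lower (1.57 to 8). *Gas1*, another coreceptor, was at 157, 158, 247, 90.4 and 519 CPM, and *Smo* at 61.3, 48.5, 53.8, 51.7 and 47.2. The GLI factors were at 10.2, 23.2, 0, 12.9 and 0 CPM for *Gli1*, 10.2, 16.9, 0, 17.2 and 47.2 for *Gli2* and 37.4, 50.6, 32.3, 38.8 and 94.4 for *Gli3*. *Cdon* and *Sufu* (the inhibitor of GLI factors) did not exceed 47.2 CPM in any library. In endothelial-gated cells the 10 other hedgehog genes summed to 61.97 to 91.3 CPM and in the Aspn/Hhip cells to 426, 460, 506, 439 and 897 CPM.

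Transcription regulators of smooth muscle and lung mesenchyme were at modest levels. *Tbx4*, a factor of the lung mesenchyme, was at 252 CPM in day 7 LPS fl/fl, 156 in day 7 LPS iKO, 334 in day 7 PBS iKO, 332 in day 21 LPS fl/fl and 377 in day 21 LPS iKO in the Aspn/Hhip cells and at 5.21 to 5.58 CPM in endothelial-gated cells of both day 7 LPS libraries. *Foxf1*, another factor of the mesenchyme that endothelial cells also make, was at 91.9, 133, 279.7, 202 and 47.2 CPM and *Myocd* at 40.8, 10.5, 21.5, 21.5 and 236. *Foxf1* and *Tbx4* were lower after LPS than after PBS in iKO, 2.11-fold lower (1.28 to 3.38) and 2.14-fold lower (1.36 to 3.29), and *Tcf21* and *Klf2* higher, with 12 genes of the list holding enough UMIs. *Ednrb*, a receptor for endothelin, was at 64.7, 52.7, 161, 185 and 897 CPM, 3.06-fold lower (1.5 to 6.04) after LPS in iKO and 2.86-fold higher (1.63 to 5.20) at day 21 than at day 7 in fl/fl. *Ednra*, the other endothelin receptor, was at 218, 209, 226, 245 and 661 CPM and past the fold in none of the 3 comparisons. Proliferation genes summed to 269, 424, 114, 91.1 and 174 CPM in the chosen cells. In endothelial-gated cells their sum ranged from 309 to 1602 CPM over the libraries. At most 3 of the 17 genes held enough UMIs in any comparison.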

How the data were processed

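Per the labels, the libraries were 10x 5′ libraries, processed by the authors with Cell Ranger 3.1 and analyzed with Seurat 4.1.0, and the deposited values are raw UMI counts per gene and barcode (GRCm38), without the correction for free RNA that the study's methods describe. Of 31053 gene IDs, 30934 (99.6%) matched GENCODE vM21. Gene and mitochondrial filters, the rule for the cells, summing, CPM and exact intervals were computed with Python 3.11.15, numpy 2.4.6, scipy 1.17.1, pandas 2.3.3 and matplotlib 3.10.9, and doublet scores with Scrublet in scanpy 1.11.5 (the top 0.8% per 1000 barcodes, kept in the main counts). Endothelial-gated cells were picked by at least 2 UMIs of *Cdh5* and *Pecam1* and none of *Epcam* or *Ptprc*. Pericyte-gated cells had at least 2 UMIs of *Cox4i2* and *Higd1b* and no lineage gene. Alveolar-fibroblast-gated cells had at least 3 UMIs of *Npnt*, *Ces1d*, *Inmt* and *Tcf21*, no lineage gene and neither pericyte gene. All of these kinds, the endothelial-gated cells included, had to hold fewer than 3 *Acta2* UMIs. Total UMIs of the chosen cells, given per library above, set the precision, and 3 UMIs served as the floor of a count of 0.

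Tests over hashtagged mice had been planned with edgeR. They could not be made, because few chosen cells carried a hashtag and most of those in the day 7 LPS libraries carried the same hashtag. Each condition is thus 1 library, and genes were counted by a fixed fold of 2 on CPM with 10 added (at least 50 CPM on 1 side and 10 UMIs in both sums). No edgeR or DESeq2 result is given, and day 21 LPS iKO, with 8 Aspn/Hhip cells, was not compared gene by gene.

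The cells, gene lists and comparisons were chosen with earlier results of these data known. Named genes were up to 8 per direction past the fold (in at least 20% of cells, with at most 33% of UMIs in 1 cell, and at least 2 times the endothelial-gated level), the 12 largest ratios per direction of the split, the highest and the counted members of 28 gene lists, and the genes of the hedgehog and myofibroblast lists. *Actg2*, *Myl9*, *Mylk*, *Tpm2*, *Myocd*, *Vcan* and *Col16a1* are list members outside this rule, chosen after their values were seen, and some genes that the rule names are not reported here. The counting step was tested on simulated data.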

Additional observations from a re-analysis of the deposited data

How the results depend on the processing

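No paired analysis was possible because each group is 1 library. DESeq2 (size factors and Wald test) and a fit with only the mice of 2 groups were not run, since no test over mice could be made. A second hashtag call, by the margin of the top hashtag over the next, was made but enters no result given here. Cells of a condition come from 1 library and are mostly untagged or carry 1 hashtag, so counting error is the only error known. Depth limits day 7 PBS iKO and day 21 LPS iKO.

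The share of Aspn/Hhip cells in day 7 LPS iKO minus PBS iKO was -28.5 percentage points. It was -45.7 with the chosen cells thinned to 2000 UMIs and -23.8 with the whole rule after thinning. The share of chosen cells among lineage-negative cells in day 7 LPS iKO differed by -2.87 points from LPS fl/fl (-7.95 over the 3 mesenchymal gates together, 0.884 without mouse 3 of LPS fl/fl) and by -0.543 from PBS iKO (-9.22 with the whole rule after thinning, -6.61 over the 3 gates). At day 21, iKO minus fl/fl was -9.67 points (-2.76 over all cells, -6.09 with the stricter rule, -13.8 with *Cox4i2* or *Higd1b* cells kept, -13.6 over the 3 gates).

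Genes past the fold in Aspn/Hhip cells between genotypes numbered 203, and 318 with 1 CPM added, 738 without the filter, 334 with the stricter rule, 510 with thinned cells and 565 with at least 5 *Aspn* and *Hhip* UMIs. Between LPS and PBS iKO they numbered 1107 (715 with 30 UMIs required, 3107 without the filter, 731 thinned), and between day 21 and day 7 fl/fl 679 (384 with 30 UMIs, 1734 without the filter). In cells with neither gene between genotypes they numbered 320 (192 with 30 UMIs, 1148 without the filter). Between both kinds of cell they numbered 490 in day 7 LPS fl/fl (326 and 1384 likewise) and 366 in day 7 LPS iKO (1047 without the filter, 644 thinned).

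Leaving out the cells of 1 tagged mouse in turn gave 202 to 482, 928 to 1148, 685 to 739, 342 to 1024, 494 to 1038 and 360 to 1090 genes in the same order. The counts over 1.5 times the first value came without mouse 3, whose hashtag was on most tagged chosen cells: 482 without that of LPS fl/fl and 420 without that of LPS iKO, then 746 and 1024, then 1038 and 1090. The lineage-negative differences ranged from -6.04 to 0.884, -3.71 to 0.155 and -9.95 to -9.37 points, and those of the Aspn/Hhip share from 4.77 to 21.2 between genotypes at day 7, -31.8 to -21.7 against PBS and -5.15 to -3.30 at day 21.

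With thinned cells *Tmem173* and *Megf11*, higher in the cells with neither gene of day 7 LPS iKO (log2 1.64 and 1.63), were at -0.30 and -0.036. The cause of these shifts was not tested, except that filters and thinning change how many UMIs enter.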
